A study of Mus musculus with 8 samples.

Results

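The 44 genes described here encode proteins of the nucleolus that make ribosomes, and their transcripts were measured in skin from the backs of female hairless mice of the Hos:HR-1 strain. They are the members of a list of ribosome biogenesis genes that had a probe set assigned to a single gene symbol, out of 18193 genes measured in that way. Each gene is represented by its brightest single-gene probe set, chosen by the mean of the deposited values across the 8 arrays. The list was drawn up after Mak16, Ddx27 and Dis3 had been selected on their higher values with collagen in these arrays, so these 3 genes are described without a test, and the counts over the list are descriptions. The mice were 9 weeks old at the start and 10 weeks old at sampling. Control mice ate the AIN-93G diet for 1 week, and collagen mice ate the same diet with 2.0 g of a hydrolysate of fish scale collagen mixed into each 100 g. The study assigned 16 mice to the diets, 8 to each and 4 to a cage, and 4 arrays per diet are analysed here, which the labels call biological replicates. The sources used here do not tie the arrays to mice or cages.

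Ribosomes are assembled in the nucleolus. RNA polymerase I transcribes the long precursor of the ribosomal RNAs there, small nucleolar ribonucleoproteins (snoRNPs) modify it, and processing complexes with many helicases, GTPases and scaffold proteins cut and fold it into the small and the large subunit. Genes for these factors are often expressed together, and proliferating or growing cells, such as the basal keratinocytes of the epidermis, express them strongly.

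The deposited values were taken to be on a log2 scale, as read from their range, and they differed very little between arrays. The median range of a probe set over the 8 arrays was 7.36 millionths of the deposited log2 unit, and 87.2% of probe sets had a range under 0.0001. Differences are therefore given in millionths of that unit, and as multiples of the gene's own within-group SD, the pooled spread between arrays of a diet. No difference was turned into a fold change, because the sources used here give no reason for so small a spread. The skin markers were at high levels: the 12 keratinocyte markers had a mean deposited log2 level of 13.1 and the 10 fibroblast markers 12.0, whereas 9 markers of tissues not sampled averaged 7.71. The collagen 1 array stood apart. Its median value deviated by -255 millionths from the mean of the array medians, against -27.8 to 75.8 in the other arrays, and its score over 24 skeletal muscle markers was the lowest, at -1.33. The 3' minus 5' difference of the Gapdh control probe sets, a measure of RNA integrity, was highest in collagen 1 (0.2906) and control 1 (0.2904) and between 0.2898 and 0.2901 in the other arrays.

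Of the 44 genes, 36 had a promoter in the RefSeq table (build GRCm38.p6), which gives 250 bases before to 50 bases after a gene's start. Windows of 180 bases, from 150 before to 30 after the start, are shown for 5 of them. Ddx27 and Dis3 are shown as 2 of the 3 genes that led to the list, and Utp18 as a gene whose diets did not overlap. Tsr1 and Nop2 are shown because they are the other genes that held both of the marked motifs, an E-box and the core of an ETS site, as Utp18 does. The windows lie at chr2:167015163-167015342 on the plus strand (Ddx27), chr14:99099741-99099920 on the minus strand (Dis3), chr11:93885737-93885916 on the minus strand (Utp18), chr6:125131733-125131912 on the plus strand (Nop2) and chr11:74897930-74898109 on the plus strand (Tsr1). Each is written 5′ to 3′ in the direction of transcription. Capitals mark the E-box letters CACGTG, which read the same on both strands, and the ETS core letters CCGGAAG, whose other orientation reads CTTCCGG.
Ddx27: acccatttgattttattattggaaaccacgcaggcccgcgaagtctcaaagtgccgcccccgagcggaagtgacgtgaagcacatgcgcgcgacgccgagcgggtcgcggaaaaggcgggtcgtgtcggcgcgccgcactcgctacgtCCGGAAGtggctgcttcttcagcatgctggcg
Dis3: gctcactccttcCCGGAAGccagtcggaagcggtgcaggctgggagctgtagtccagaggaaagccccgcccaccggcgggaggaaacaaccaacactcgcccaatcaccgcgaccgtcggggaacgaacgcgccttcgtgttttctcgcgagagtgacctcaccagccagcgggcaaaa
Utp18: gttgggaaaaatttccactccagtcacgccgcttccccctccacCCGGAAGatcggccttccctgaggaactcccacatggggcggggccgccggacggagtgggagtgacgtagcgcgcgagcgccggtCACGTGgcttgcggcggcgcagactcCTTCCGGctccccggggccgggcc
Nop2: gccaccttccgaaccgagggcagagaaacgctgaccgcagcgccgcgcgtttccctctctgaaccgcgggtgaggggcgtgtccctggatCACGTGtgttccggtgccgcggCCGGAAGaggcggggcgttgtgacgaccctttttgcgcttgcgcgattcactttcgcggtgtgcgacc
Tsr1: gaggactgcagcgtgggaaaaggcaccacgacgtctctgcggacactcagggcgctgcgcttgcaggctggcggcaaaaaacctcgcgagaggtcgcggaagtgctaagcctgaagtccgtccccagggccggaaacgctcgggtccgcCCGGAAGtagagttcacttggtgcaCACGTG

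Motifs were searched as exact letters on both strands of the whole promoters, as a description of the sequence. CACGTG, the E-box that MYC and MAX can bind, was present in 7 of the 36 genes (19.4%), against 10.2% of the 14452 measured genes with a promoter and 8.09% of all 27025 genes in the table. The 7 genes were Imp4, Nop2, Pes1, Tsr1, Utp18, Utp20 and Wdr43. CCGGAAG, the core letters of ETS family sites, was present in 14 genes (38.9%), against 15% of measured genes and 9.93% of all genes, and in 10 of the 14 a copy began within 30 bases of the start. In Ddx27 and Tsr1 shown above the capitals at the start site are such copies. GGGCGG, the GC box of SP1, was in 30 genes (83.3%), against 57.3% of measured genes.

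TATAAA, the TATA box, was in Dkc1 and Pes1 among the 36 genes (5.56%), against 11.5% of measured genes. CCAAT, the CCAAT box of NF-Y, was in 16 genes (44.4%) and 42% of measured genes. The median GC content was 59.7% in the promoters of the 36 genes and 58.3% in those of measured genes. None of the 5 motifs contains another.

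All 44 genes had a higher mean in collagen than in control arrays in the values as deposited, but after quantile normalization 17 were higher, 20 lower and 7 equal. Over all 18193 genes, 52.8% were higher with collagen in the deposited values and 53.0% after quantile normalization. The median difference of the 44 genes was 16.7 millionths and 1.13 within-group SD, and without Mak16, Ddx27 and Dis3 it was 1.07 SD. The median over all genes was 0.0518 SD. Differences ranged from 0.38 millionths for Npm1 to 362 millionths for Nop58. Leaving out the 3 genes selected on these values, 23 of the other 41 were past 1 within-group SD, against 10.6% of all genes, and 3 were past 2 SD, against 1.56%. The 95th percentile of all genes was 1.39 SD, and 11 of the 41 lay above it.

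**Figure D1:**
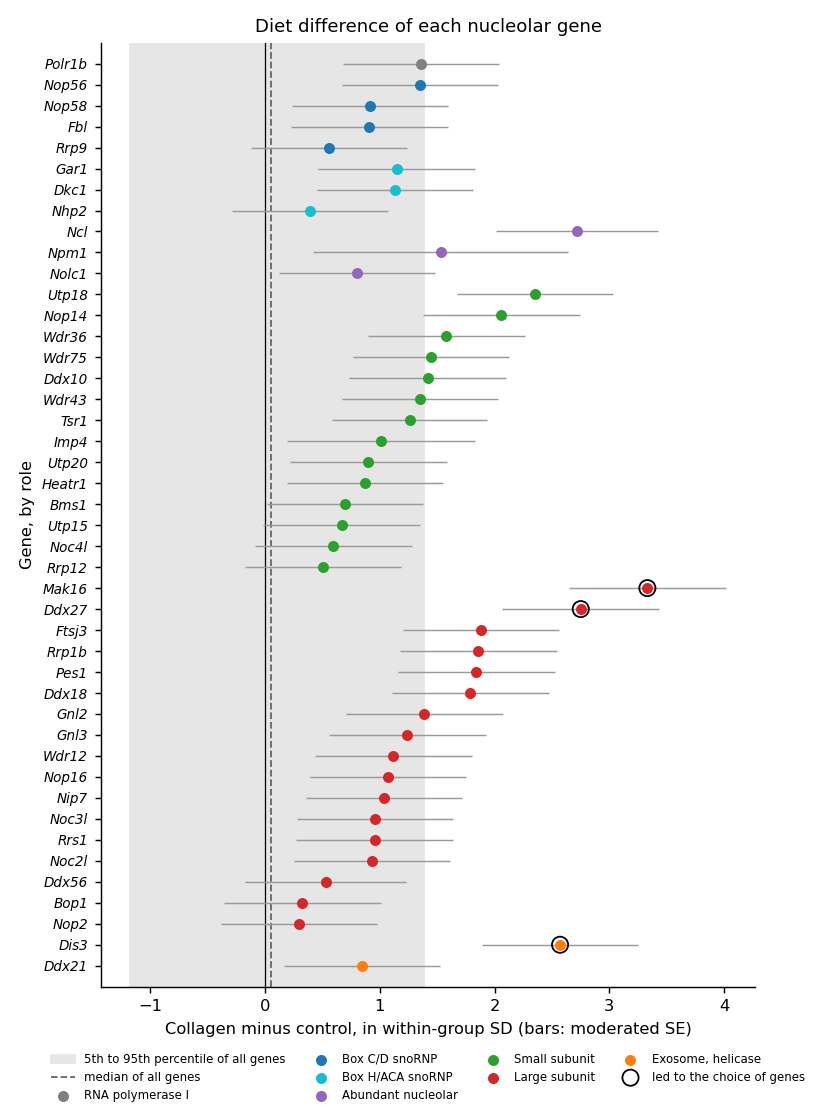
Difference of each of the 44 nucleolar genes between the means of 4 collagen and 4 control arrays, in units of the gene's within-group SD, with bars of 1 moderated standard error from limma, coloured by role and circled for the 3 genes that led to the list. All 44 points lie above 0 in the deposited values (17 after quantile normalization), and 14, with the 3 circled genes among them, lie beyond the grey band that holds the 5th to 95th percentile (-1.17 to 1.39) of all genes.

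No gene passed the adjusted threshold of 0.05: limma gave 0 calls among the 18193 genes (0%), and the smallest adjusted p was 0.999. At an unadjusted p under 0.05, limma called 7 of the 41 genes that were tested, all higher, and 2.26% of all genes higher and 1.23% lower. They were Ncl (0.00716), Utp18 (0.012), Nop14 (0.0215), Ftsj3 (0.0304), Rrp1b (0.0316), Pes1 (0.0332) and Ddx18 (0.0363). This count depended on single arrays, and so did the share of all 18193 genes at that p in either direction, which was 3.49% with all arrays. Without collagen 4 the count was 15 of 41, beside 8.54% of all genes. It was 2 without collagen 2 (3.18%), 3 without collagen 1 (3.15%), 4 without control 2 (2.45%) and 4 without control 3 (2.67%). Without control 1 it was 3 of 41, beside 6.12% of all genes, a share near that of the list. It was 1 after quantile normalization (2.84%), and that gene, Ddx21, was lower with collagen and not among the 7. After median centring the count was 0 (0.396%), and 94.6% of all genes were higher with collagen. In 5 genes all 4 collagen arrays lay above all 4 control arrays, against 1.34% of all genes; all 4 lay below in none of the 44 and in 0.671% of all genes. These were Mak16, Ddx27 and Dis3, and of the other 41, Ncl and Utp18.

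Most of the difference lay in 2 of the collagen arrays. Averaged over the 44 genes as z values (each gene's value minus its mean, divided by its SD over the 8 arrays), the score was -0.764, -0.452, -0.731 and -0.093 in control 1 to 4 and 1.43, 0.976, -0.0518 and -0.309 in collagen 1 to 4. Collagen 1 and collagen 2 stood far above every control, collagen 3 was close to control 4, the highest control, and collagen 4 lay within the control range. Collagen 1 was the highest array for 34 genes, collagen 2 for 9 and control 4 for 1 (Nop2). Among all genes, 17.6% had their highest value in collagen 1 and 13.4% in collagen 2. The 2 highest arrays were collagen 1 and collagen 2 for 31 of the 44 genes, against 6.05% of all genes. Collagen 3 was above all controls for 18 genes and collagen 4 for 9, counts that were not taken over all genes. The lowest array was control 3 for 17 genes and control 1 for 13, but collagen 4 for 5 and collagen 3 for 1. Among all genes, 10.6% had their lowest value in control 3, 12.9% in control 1, 9.75% in collagen 4 and 8.49% in collagen 3.

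**Figure D2:**
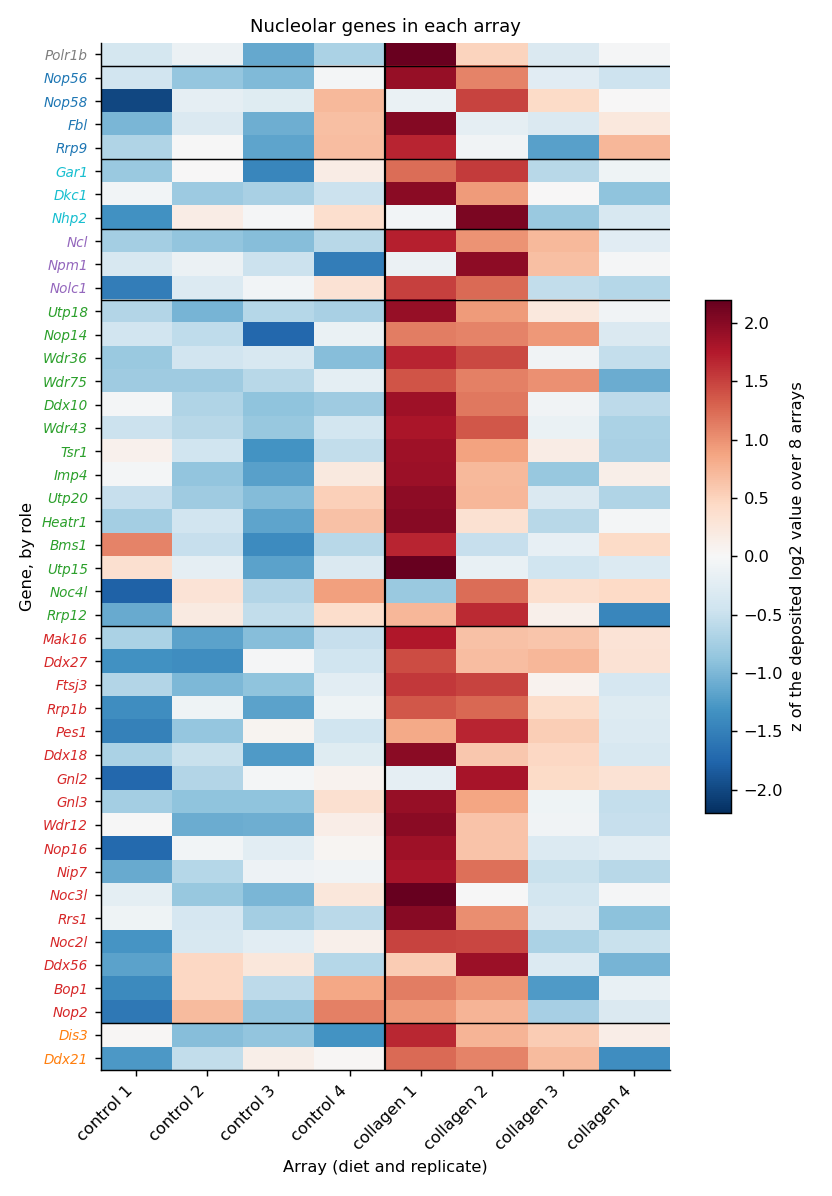
Deposited log2 value of each of the 44 nucleolar genes (rows, ordered by role) in the 4 control and 4 collagen arrays (columns), as a z value over the 8 arrays, red above and blue below the gene's mean. Collagen 1 and collagen 2 are red for most rows, with mean z values of 1.43 and 0.976, while collagen 3 and collagen 4 are pale or mixed (-0.0518 and -0.309).

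Transcription of the ribosomal RNA precursor was represented by Polr1b, the second-largest subunit of RNA polymerase I. As deviations from its mean over the 8 arrays, Polr1b stood at -17.7, -5.7, -52.1 and -32.4 millionths in control 1 to 4 and at 102, 22.6, -15.2 and -1.22 millionths in collagen 1 to 4. Collagen 1 was far above the rest, and collagen 3 lay among the controls. The difference was 53.9 ± 26.9 millionths (SE; 1.36 SD), with an unadjusted p of 0.0879 and an adjusted p of 0.999 by limma. Without collagen 1 the difference was 29.0 millionths.

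The 4 genes of box C/D snoRNPs, which guide 2′-O-methylation of ribosomal RNA, were all higher in the deposited values, with a median of 0.914 SD, and 3 were higher and 1 equal after quantile normalization. Nop56, a core scaffold protein of these particles, was at -29.6, -59.2, -68.1 and -3.43 millionths in the controls and at 134, 75.9, -17.6 and -32.1 millionths in collagen 1 to 4. Its first 2 collagen arrays were above every control, and the other 2 were inside the control range. The difference was 80.2 ± 40.5 millionths (unadjusted p = 0.0916, adjusted p = 0.999 by limma).

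Nop58, the partner of Nop56, had the widest range of the 44 genes, 1440 millionths. It was at -825, -82.7, -110 and 293 millionths in control 1 to 4 and at -63.2, 614, 173 and 0.134 millionths in collagen 1 to 4. The low value of control 1 and the high value of collagen 2 made up most of this range, and control 4 was above 3 of the 4 collagen arrays. The difference of 362 ± 268 millionths (unadjusted p = 0.222, adjusted p = 0.999 by limma) was 148 millionths without control 1. Fbl encodes fibrillarin, the methyltransferase of the particle. Its values were -8.6, -2.75, -9.06 and 5.64 millionths in the controls and 17.2, -1.65, -2.69 and 1.94 millionths in collagen 1 to 4, so that collagen 1 alone was above control 4. The difference was 7.38 ± 5.52 millionths, 2.89 without collagen 1 and 0 after quantile normalization. Rrp9, a protein of the U3 snoRNP, differed by 0.557 SD, and its lowest array was collagen 3.

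The 3 genes of box H/ACA snoRNPs, which carry out pseudouridylation, had a median difference of 1.13 SD, and all 3 were higher in the deposited values and after quantile normalization. Dkc1 encodes the pseudouridine synthase. It was at -9.77, -129, -115 and -77.5 millionths in control 1 to 4 and at 321, 151, 2.58 and -144 millionths in collagen 1 to 4. Collagen 1 was the highest and collagen 4 the lowest of all 8 arrays. The difference of 165 ± 99.2 millionths had an unadjusted p of 0.143 and an adjusted p of 0.999 by limma, and was 85.7 millionths without collagen 1.

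Gar1, a core protein of the same particle, was at -6.35, 0.0662, -11.2 and 1.31 millionths in the controls and at 9.71, 12.1, -4.8 and -0.764 millionths in collagen 1 to 4. The first 2 collagen arrays were above every control and the other 2 were not. Its difference was 8.11 ± 4.82 millionths (unadjusted p = 0.14, adjusted p = 0.999 by limma). Nhp2, the third of these proteins, was at -21.4, 2.54, -0.439 and 6.04 millionths in the controls and at -0.989, 33.3, -13.2 and -5.78 millionths in collagen 1 to 4. Collagen 2 was the only collagen array above the controls, and the difference of 6.64 ± 11.5 millionths turned to -3.34 without it.

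Of the 3 abundant nucleolar proteins, all were higher in the deposited values, whereas 1 was lower and 2 equal after quantile normalization. Nucleolin (Ncl), an abundant RNA-binding protein of the nucleolus, had the smallest p of the tested genes. It was at -1.54, -1.77, -1.93 and -1.25 millionths in control 1 to 4 and at 3.52, 2.04, 1.48 and -0.515 millionths in collagen 1 to 4. All 4 collagen arrays were above all 4 controls, and the controls lay close together. The means were -1.63 ± 0.295 in control and 1.63 ± 1.67 in collagen (SD, n = 4 each). The difference was 3.26 ± 0.843 millionths, or 2.72 SD, with an adjusted p of 0.999 by limma, and quantile normalization gave 0.

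Nucleophosmin (Npm1), a histone and ribosome chaperone, varied least. It was at -0.108, -0.0375, -0.148 and -0.468 millionths in the controls and at -0.0375, 0.602, 0.202 and -0.0075 millionths in collagen 1 to 4. The highest control and collagen 1 had the same value, and the other 3 collagen arrays were above it. Its difference of 0.38 ± 0.275 millionths (unadjusted p = 0.212, adjusted p = 0.999 by limma) was 0 after quantile normalization. Nolc1, a chaperone of snoRNPs, differed by 15.8 ± 13.4 millionths, with collagen 1 and collagen 2 above the controls and the other 2 not.

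**Figure D3:**
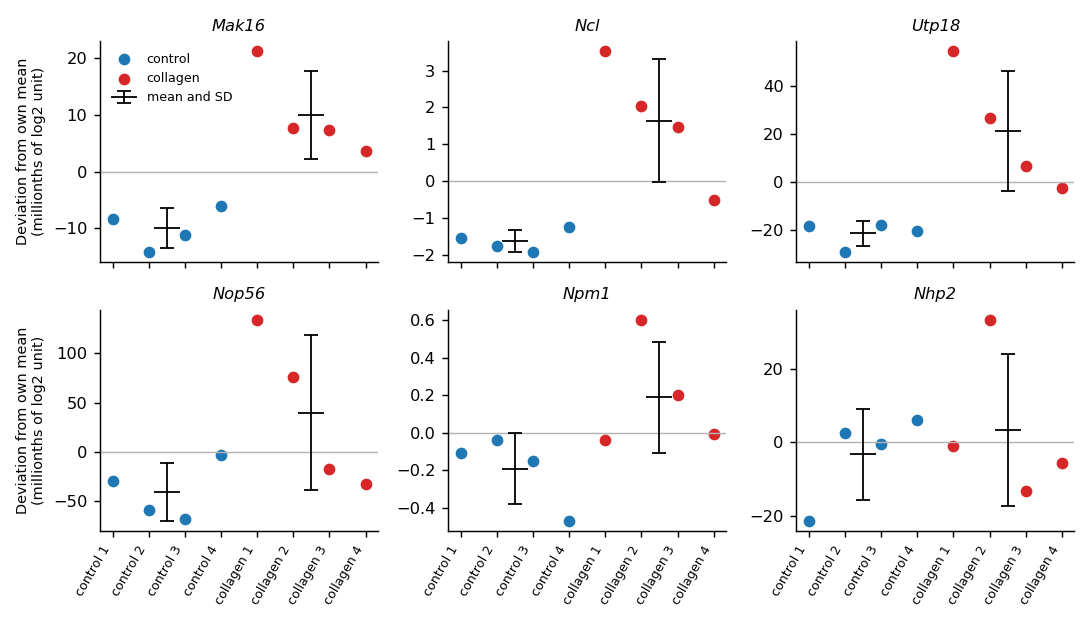
Deviation of the deposited log2 value from the gene's own mean over 8 arrays, in millionths of the log2 unit, in each control (blue) and collagen (red) array for 6 nucleolar genes, with group means and SD (n = 4 each). Mak16, Ncl and Utp18 show no overlap between diets in these deposited values (after quantile normalization Mak16 is lower with collagen and Ncl equal), whereas in Nop56, Npm1 and Nhp2 collagen arrays lie at or inside the control range; the vertical scales differ between panels.

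The 14 genes of the small subunit pathway were all higher in the deposited values, with a median of 1.14 SD, and 7 were higher, 5 lower and 2 equal after quantile normalization. Utp18, a subunit of the small subunit processome that assembles on the nascent precursor, was at -18.3, -29.2, -17.8 and -20.3 millionths in control 1 to 4 and at 54.6, 26.6, 6.81 and -2.41 millionths in collagen 1 to 4. All collagen arrays were above all controls. The difference was 42.8 ± 12.4 millionths (2.35 SD), with an unadjusted p of 0.012 and an adjusted p of 0.999 by limma. Nop14, a factor needed for the same subunit, was at -2.08, -2.72, -8.43 and -0.731 millionths in the controls and at 5.51, 5.34, 4.69 and -1.57 millionths in collagen 1 to 4. Here 3 collagen arrays were close together above every control, and collagen 4 was among the controls. The difference of 6.98 ± 2.32 millionths became -94.4 millionths after quantile normalization.

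Bms1, a GTPase of the processome, was at 11.5, -5.27, -14.5 and -6.37 millionths in the controls and at 17.5, -5.28, -1.9 and 4.32 millionths in collagen 1 to 4. Control 1 was above 3 of the collagen arrays. Its difference of 7.33 ± 7.13 millionths (unadjusted p = 0.341, adjusted p = 0.999 by limma) turned to -0.736 when the Gapdh measure of RNA integrity was a covariate and to -1.75 when the muscle score was. The other 11 genes of this group had differences between 0.473 millionths for Imp4, which belongs to the U3 snoRNP, and 58.6 millionths for Tsr1, a maturation factor of the small subunit. In within-group SD they ran from 0.507 for Rrp12 to 1.58 for Wdr36, and none had an unadjusted p under 0.05. The WD-repeat proteins Wdr36, Wdr43 and Wdr75 differed by 1.58, 1.35 and 1.45 SD, and the scaffold proteins Heatr1 and Utp20 by 0.875 and 0.901 SD.

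The 17 genes of the large subunit pathway were all higher in the deposited values, with a median of 1.12 SD, but after quantile normalization 3 were higher, 12 lower and 2 equal. Mak16, an early assembly factor, was at -8.42, -14.2, -11.2 and -6.06 millionths in control 1 to 4 and at 21.2, 7.64, 7.35 and 3.66 millionths in collagen 1 to 4. Ddx27, a DEAD-box helicase that acts on the end of the large subunit RNA, was at -14.7, -15.0, -0.305 and -4.8 millionths in the controls and at 15.7, 7.5, 8.1 and 3.4 millionths in collagen 1 to 4. In both genes every collagen array was above every control, and both had been selected on their higher values with collagen. Their differences were 19.9 ± 4.07 and 17.4 ± 4.31 millionths, and after quantile normalization -114 and -14.5 millionths.

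Gnl3 encodes nucleostemin, a GTP-binding protein of proliferating cells. It was at -20.3, -23.9, -24.1 and 9.61 millionths in the controls and at 51.9, 23.7, -2.74 and -14.1 millionths in collagen 1 to 4. The first 3 controls were below every collagen array, and control 4 was above collagen 3 and collagen 4. The difference was 29.4 ± 16.2 millionths (unadjusted p = 0.116, adjusted p = 0.999 by limma) and 0 after quantile normalization. Ftsj3, a ribosomal RNA methyltransferase, Rrp1b, Pes1 and the helicase Ddx18, named after their values were seen, differed by 1.88, 1.86, 1.84 and 1.79 SD, each with collagen 4 inside the control range. Pes1, Bop1 and Wdr12 form a complex in processing of the large subunit RNA, and their differences were 1.84, 0.325 and 1.12 SD. Nop2, a methyltransferase of that RNA, had the smallest difference of the 44 in SD units (0.298), and its highest array was control 4. The other genes of the group, Gnl2, Nop16, Nip7, Noc3l, Rrs1, Noc2l and Ddx56, ran from 0.531 SD for Ddx56 to 1.39 SD for Gnl2.

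Dis3, a ribonuclease of the RNA exosome, was at 0.458, -13.8, -12.8 and -19.3 millionths in control 1 to 4 and at 24.2, 10.8, 8.21 and 2.21 millionths in collagen 1 to 4. Every collagen array was above every control, in a gene that had likewise been selected on its higher values with collagen. The difference of 22.7 ± 6.02 millionths became -117 after quantile normalization. Ddx21, a helicase that links polymerase I transcription with processing, was at -79.3, -34.1, 8.43 and 2.07 millionths in the controls and at 77.8, 67.8, 43.3 and -86.0 millionths in collagen 1 to 4. The first 3 collagen arrays were above every control and collagen 4 was the lowest array. The difference was 51.5 ± 41.3 millionths (unadjusted p = 0.256, adjusted p = 0.999 by limma), and after quantile normalization it was -339 millionths with an unadjusted p of 0.0046.

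The 44 genes varied together over the arrays. The Pearson correlation over 8 arrays, taken as a description, had a median of 0.69 over their 946 pairs, from -0.52 to 0.99, and was above 0 in 97.1% of pairs. Over all pairs of 18191 genes with any variation the median was 0.01, with 50.6% above 0. In deviations from the diet means, which remove the difference between diets, the median was still 0.60, and 60.4% of pairs were above 0.5, against 15.8% of all pairs. All genes of an array share its RNA sample and hybridisation. The median was 0.58 without collagen 1, 0.29 after quantile normalization and 0.99 after median centring. Median centring subtracts the same amount from every gene of an array, -255 millionths for collagen 1. The median range of a gene was 9.16 millionths, so the 0.99 does not single out the 44 genes. Medians over all pairs of genes after these rescalings are not given here.

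**Figure D4:**
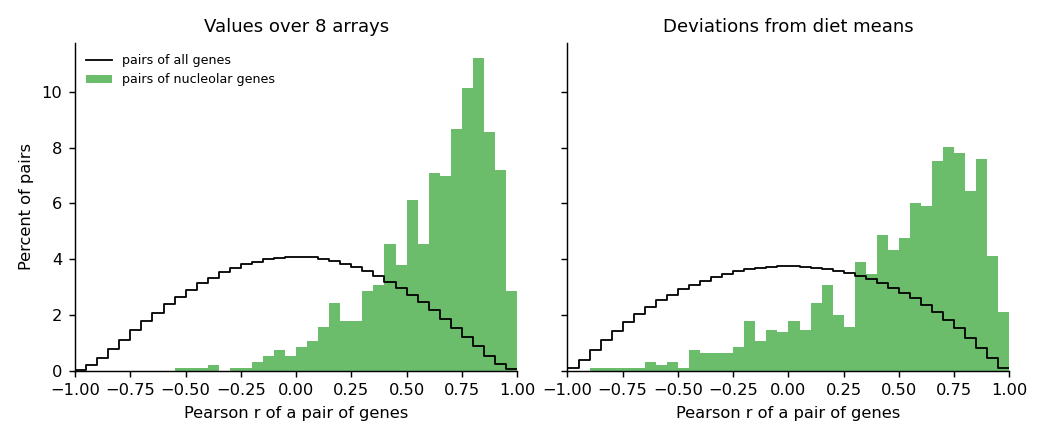
Share of gene pairs (percent) by Pearson correlation over 8 arrays, for the 946 pairs of the 44 nucleolar genes (green bars) and for all pairs of genes (black line), in the deposited values (left) and in deviations from the diet means (right). The nucleolar pairs centre on 0.69 and 0.60, the pairs of all genes on 0.01 in both panels; after quantile normalization the nucleolar median was 0.29.

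Within roles, the median correlation was 0.73 among the 14 small subunit genes, 0.72 among the 17 large subunit genes, 0.69 among the box H/ACA genes, 0.56 among Ncl, Npm1 and Nolc1, and 0.50 among the box C/D genes. In deviations from the diet means these medians were 0.67, 0.62, 0.58, 0.02 and 0.36. The pairs among Ncl, Npm1 and Nolc1 ran from 0.02 to 0.68 in these deviations. Against the mean of the other 43 genes, 41 of the 44 correlated above 0.5, and the median was 0.86. Ftsj3 (0.967), Nop56 (0.966), Wdr43 (0.965) and Gnl3 (0.96) were closest to the shared pattern. Noc4l, a small subunit factor, Bms1 and Npm1 were farthest from it, at 0.241, 0.377 and 0.432. In deviations from the diet means Npm1 and Noc4l were at -0.0293 and -0.00267, whereas Ncl and Nolc1 were at 0.895 and 0.878.

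A second probe set of the same gene gave a partial check, since 31 of the 44 genes had more than 1. In 27 of the 31 the second-brightest probe set was also higher with collagen in the deposited values, and in 4 it was lower. Its correlation with the main probe set had a median of 0.608 and was above 0.5 in 18 genes. The correlation ran from -0.677 for Bms1, -0.572 for Ddx10 and -0.404 for Wdr12 to 0.989 for Dkc1. For Ncl the second probe set correlated at 0.902 and differed by 22.4 ± 8.18 millionths. For Utp18 it correlated at 0.308 and differed by 2.87 ± 3.03 millionths, and for Ddx27 at 0.505 with a difference of 0.143 ± 0.267. Of the main probe sets, 9 are of the s_at and x_at types, whose probes can match transcripts of other genes, and the 35 others were all higher in the deposited values, with a median of 1.13 SD.

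Ribosome biogenesis genes outside the 44 were taken from a list of 121 measured genes. Of these, 110 were higher and 11 lower with collagen in the deposited values, with a median of 0.909 SD, and after quantile normalization 65 were higher. At an unadjusted p under 0.05, limma called 23, or 19.0%, all higher, against 2.26% of all genes higher, and none after adjustment. That count was 36 without collagen 4, where 8.54% of all genes were at that p in either direction. It was 13 without control 2 (2.45%), 14 without collagen 2 (3.18%), 15 without control 3 (2.67%) and 15 without collagen 1 (3.15%). By role, the higher genes were 12 of 14 for polymerase I transcription, 41 of 42 for the small subunit, 38 of 41 for the large subunit and 19 of 24 for the exosome and snoRNPs. The smallest p values were those of the helicase Ddx51 (5.14 ± 1.05 millionths, unadjusted p = 0.00216) and Spata5, an ATPase of large subunit maturation (5.07 ± 1.07 millionths, unadjusted p = 0.00262), both with an adjusted p of 0.999 by limma. The 2 smallest p values of the small subunit group were those of the helicase Ddx49 (1.57 millionths) and Tsr3 (1.05 millionths), and of the exosome and snoRNP group those of the exosome subunit Exosc2 (6.18 millionths) and the exonuclease Xrn2 (4.40 millionths). In the polymerase I group they were those of Cd3eap, a polymerase I subunit (8.89 millionths), and Taf1a, a subunit of its selectivity factor (3.28 millionths). Pairs of the 121 genes had a median correlation of 0.40, and pairs between them and the 44 genes 0.53.

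Of 43 measured proteins of the cytosolic ribosome itself, 30 were higher, 9 lower and 4 equal in the deposited values and 35 equal after quantile normalization. Their median was 0.288 SD, none was at an unadjusted p under 0.05 by limma, and their pairs had a median correlation of 0.10. The absence of small p values says little, because limma's moderated SE far exceeded the spread of many of these probe sets. Rps3 differed by 2.15 SD, but by 0.0625 ± 0.217 millionths, with an unadjusted p of 0.783 by limma. Rpl27a (21.6 ± 9.64 millionths) and Rpl39 (0.528 ± 0.295 millionths) had the smallest p values, at levels of 8.98 and 9.81 against a list mean of 13.0. The 10 genes of the MYC network split into 5 higher and 5 lower, with a median of -0.0264 SD. Of these Mycl, a MYC family member, had the smallest p (9.77 ± 2.69 millionths, unadjusted p = 0.00948, adjusted p = 0.999 by limma), followed by Mxi1, an antagonist of MYC (-2.13 ± 2.87 millionths). Of 17 cell cycle genes 14 were higher in the deposited values, with a median of 0.697 SD, and 8 after quantile normalization. At an unadjusted p under 0.05, limma called 4 of the 17 (23.5%), all higher, against 2.26% of all genes higher. In 4 all collagen arrays lay above all controls, against 1.34% of all genes. Mcm4 (4.65 ± 1.35 millionths) and Mcm5 (8.35 ± 2.45 millionths), subunits of the replicative helicase, had the smallest p values. Collagen 2 (0.975) and collagen 4 (0.576) had the highest cell cycle scores and collagen 1 had -0.234. The nucleolar scores of these 3 arrays were 0.976, -0.309 and 1.43. Control 1 was the lowest array in both lists, at -0.775 for the cell cycle genes and -0.764 for the nucleolar genes.

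**Figure D5:**
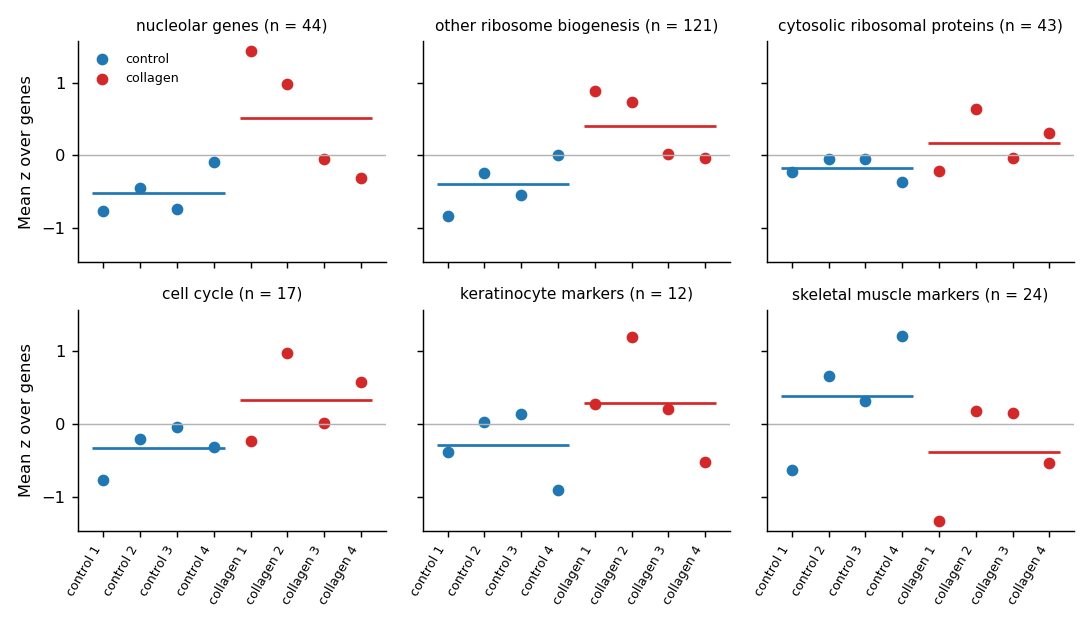
Mean z value in each of the 4 control (blue) and 4 collagen (red) arrays for 6 gene lists in the deposited values, with a line at each group mean. The nucleolar genes and the other ribosome biogenesis genes are highest in collagen 1 (1.43 and 0.879) and collagen 2 (0.976 and 0.729), the keratinocyte markers in collagen 2 (1.19), and the skeletal muscle markers are lowest in collagen 1 (-1.33).

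Markers of the cell types in skin were counted in the same way, and none passed adjustment by limma. At an unadjusted p under 0.05, limma called 2.26% of all genes higher and 1.23% lower, the shares to set beside the counts below. Of 24 skeletal muscle markers 23 were lower with collagen in the deposited values (13 after quantile normalization), with scores of -0.627 to 1.21 in control and -1.33 to 0.174 in collagen arrays, and 1 of them, Casq1, was at an unadjusted p under 0.05. In the deposited values 9 of 10 fibroblast markers were lower (scores of -0.193 to 0.601 in control, -1.44 to 0.582 in collagen), and 4 after quantile normalization. All 8 endothelial markers were lower (-0.255 to 0.793 and -1.35 to 0.464), and 4 after quantile normalization. Of 12 keratinocyte markers 10 were higher (-0.914 to 0.135 in control, -0.524 to 1.19 in collagen), and 2 after quantile normalization. None of the fibroblast, endothelial and keratinocyte markers was at an unadjusted p under 0.05.

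Among 9 markers of macrophages and dendritic cells, 6 had lower deposited values with collagen (-0.0448 to 0.56 in control, -1.37 to 1.10 in collagen) and 4 after quantile normalization. Of the 9, 2 were at an unadjusted p under 0.05 by limma, Cd207 and Itgax, both lower, beside 1.23% of all genes lower. Of 5 T cell markers 4 were lower (-0.258 to 0.533 and -0.981 to 1.65), and 2 after quantile normalization. Of 11 hair matrix and shaft markers 9 were lower (-0.965 to 0.719 and -1.34 to 1.12), and 8 after quantile normalization. Of 6 adipocyte markers 4 were higher (-1.15 to 0.804 and -0.907 to 1.24), and 2 after quantile normalization. All 6 melanocyte markers were higher both in the deposited values (-1.02 to 0.276 and -0.133 to 1.09) and after quantile normalization. Of the 6, 2 were at an unadjusted p under 0.05 by limma, Tyrp1 and Dct, beside 2.26% of all genes higher.

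The markers with the smallest p values differed, in millionths, by -2840 ± 1140 (Casq1) and -444 ± 205 (Eno3) for muscle, -26.5 ± 13.1 (Twist2) and -71.0 ± 37.3 (Pdgfra) for fibroblasts, and -25.1 ± 10.5 (Cdh5) and -58.8 ± 38.4 (Kdr) for endothelium. For keratinocytes they were Trp63 (62.0 ± 25.9) and Ivl (416 ± 229), for macrophages and dendritic cells Cd207 (-24.0 ± 6.94) and Itgax (-151 ± 47.2), and for melanocytes Tyrp1 (3590 ± 1390) and Dct (1560 ± 609). The other lists had larger p values, with Cd3g (-17.1 ± 25.8) and Cd8a (0.585 ± 1.00) for T cells, Pparg (44.4 ± 81.4) and Lep (168 ± 360) for adipocytes, Krt86 (-21500 ± 21700) and Krt33a (-21900 ± 22700) for hair, and Gcg (0.445 ± 0.319) and Snap25 (0.800 ± 0.758) for tissues not sampled. The scores of all these lists overlapped between the diets, and all keratinocyte, fibroblast and muscle markers had levels above 8.193, the median level of all probe sets, as did all 44 nucleolar genes, which ranged from 8.75 to 13.22. In RNA from whole skin, fewer cells of a type and less RNA per cell cannot be told apart. When the muscle score was a covariate, 42 of the 44 nucleolar genes were higher with collagen (median 1.02 SD), and when the Gapdh measure was, also 42 (median 0.965 SD). The part of the other cell types in the difference was not tested.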

How the data were processed

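Total RNA from frozen, powdered dorsal skin was labelled with biotin and hybridised to 1-colour Affymetrix arrays, per the labels' protocols. The authors deposited log2 values in a table of all arrays, and R 2.7.2 is named in the submitters' processing notes. How the values were summarised and normalized is not stated in those sources, and the log2 scale was read from the range of the values (6.56 to 14.46). Values were used as deposited. After 64 control probe sets were left out, 45037 remained, of which 34945 had 1 gene symbol in the platform annotation.

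A two-sided linear model of collagen less control, without covariates, was fitted to each gene by lmFit and eBayes of limma 3.58.1 (R 4.3.3), with Benjamini-Hochberg adjustment over all 18193 genes and a threshold of 0.05. The 8 arrays limit the precision. The fit was tested on simulated data. Differences under 1e-09 counted as equal.

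The 44 genes and all other lists were chosen with earlier results of these data known. Values in every array are given for Mak16, Ddx27, Dis3, the 2 genes with the smallest p and the gene with the highest level in each role. Of the other lists, the 2 genes with the smallest p are named, and further genes named were chosen after their values were seen. Alternatives were each array left out, quantile normalization, median centring, a filter on dim genes, all probe sets in the fit, other probe sets per gene, a trend and robust variance model, array weights, a block by replicate number, and 2 covariates.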

Additional observations from a re-analysis of the deposited data

Results flagged for a closer look

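In 6 of the 88 groups of 4 arrays (44 genes in 2 diets), 1 array lay far from the other 3, by Dixon's criterion at the 95% level. Chance gives about 1 group in 20, or 4.4 of 88. Values are deviations from the gene's own mean in millionths of the deposited log2 unit. Utp15 was at 12.6 in collagen 1, with the other collagen arrays between -2.46 and -0.954. Noc3l was at 54.5 in collagen 1, against -9.86 to -0.0963 in the others. Wdr75 was at -18.1 in collagen 4, against 16.6 to 22.8. Nop14 was at -1.57 in collagen 4, against 4.69 to 5.51. Among the controls, Gnl3 was at 9.61 in control 4, against -24.1 to -20.3, and Nop16 was at -122 in control 1, against -16.9 to 2.63.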

How the results depend on the processing

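The direction of the 44 genes depended on the scaling. After quantile normalization 17 were higher, and the median of the 44 was 0.00248 SD. Of the 41 tested genes 1, Ddx21, was at an unadjusted p under 0.05 by limma, and it was lower. Of the other 121 biogenesis genes 65 were higher and 5 were at that p. Neighbouring ranks at the levels of the 44 genes lay a median of 184 millionths apart, and 39 genes ranged over the arrays by less than the spacing at their level. Quantile normalization turned Ddx21 (-339 millionths), Dis3 (-117), Mak16 (-114), Nop14 (-94.4) and Ddx27 (-14.5), for a cause that was not tested. After median centring 0 of either list were at an unadjusted p under 0.05. With the other settings run, 40 to 44 of the 44 genes were higher. Bms1 was at -0.736 and -1.75 millionths with the Gapdh and muscle covariates, and Nhp2 at -0.483 with array weights.

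Leaving out each array in turn gave 2 to 15 of the 41 tested genes and 13 to 36 of the 121 at an unadjusted p under 0.05, where 2.45% to 8.54% of all genes were at that p. It gave -3.34 to 12.1 millionths for Nhp2, and a median pair correlation of 0.58 to 0.73. That median was 0.29 after quantile normalization, 0.99 after median centring, 0.63 with the mean of a gene's probe sets and 0.46 with the second-brightest ones. The 0.99 follows a shift common to all genes of an array. No setting gave any of the 41 tested genes an adjusted p under 0.05 by limma; over all genes 1, outside the 44, passed with the muscle covariate (adjusted p = 0.0198).

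Arrays with the same replicate number correlated in their deviations by 0.362, 0.0486, 0.215 and 0.0111. That was the best match for control 1 and control 3. In contrast, control 2 correlated best with collagen 4 (0.175) and control 4 with collagen 2 (0.0611). These values do not settle whether arrays were paired, and the main fit did not take the numbers as pairs. With the replicate number as a block, 44 genes were higher and 3 of the 41 were at an unadjusted p under 0.05, beside 6.10% of all genes, a share near that of the list. Signal over background was not measured here, so how far it limits the dimmest genes is unknown.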
